A study of Schizosaccharomyces pombe with 22 samples.

Results

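The 9 genes described here encode the histone deacetylases of the fission yeast Schizosaccharomyces pombe that the arrays name, together with 3 partner subunits of the Clr6 complexes. They are clr6, clr3, hos2, sir2, hst2, hst4, rxt2, alp13 and prw1. Their probes were found by symbol, synonym or systematic identifier, with the IGR- prefix on arrays of intergenic regions (IGRs). All 9 had an expression probe among the 4714 gene names present on every expression array and among the 4527 genes tested. They had 10 of the 4941 IGR probe names, because hos2 is spotted both as IGR-hos2 and under its older symbol as IGR-hda1.

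The study concerned Pst3, a homolog of the Sin3 scaffold, and its 22 samples were read on spotted arrays that carry either open reading frame (ORF) or IGR probes. RNA came from a strain whose pst3 gene is driven by the nmt promoter, labelled as repressed (2 arrays), and from wild type (8 arrays). The nmt promoter is shut off by thiamine, but the labels give no medium, time or strain genotype beyond this. Chromatin arrays covered the DNA precipitated with Pst3 fused to a fluorescent tag (Pst3-GFP) beside wild-type input on IGR probes (2 arrays). Another 2 ORF and 2 IGR arrays of the Pst3-GFP strain have titles that set a Pst3-GFP immunoprecipitate against beads. Their channels are labelled input and beads, so the labels do not settle which DNA was set against the beads. Histone H3 arrays carry the labels hst2D, hst4D and wild type, with 1 ORF and 1 IGR array for each. On the hst2D and hst4D arrays the channels are labelled as input of that strain and as H3 beads, and 3 of the 4 bead channels are labelled wild type. The 2 arrays labelled pst3 repressed carry different dyes of a source with 1 name, and codes in the wild-type titles recur, so neither set is known to hold separate cultures. The p-values therefore measure array-to-array spread, part or all of which may be technical.

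Histone deacetylases remove acetyl groups from histone tails and mostly lower the transcription of the chromatin they act on. Clr6 is the essential class I enzyme of fission yeast and works in Sin3-type complexes. Complex I holds Pst1 and complex II holds Pst2 with the chromodomain protein Alp13. Prw1 is a WD-repeat histone-binding subunit of both, and Rxt2 is a subunit of the complex with Pst1. Clr3 is the class II enzyme of the silencing complex SHREC, and Hos2 is the class I enzyme of the Set3 complex. Sir2, Hst2 and Hst4 are sirtuins, which consume nicotinamide adenine dinucleotide and act at silent chromatin, at ribosomal DNA and on newly placed histone H3.

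In the ASM294v3 assembly clr6 (SPBC36.05c) lies at chrII:849345-851476, clr3 (SPBC800.03) at chrII:254686-257138, rxt2 (SPBC428.06c) at chrII:451027-453045 and sir2 (SPBC16D10.07c) at chrII:3609217-3611686. On chromosome I lie alp13 (SPAC23H4.12) at chrI:1587022-1588577, hst4 (SPAC1783.04c) at chrI:2192037-2193615, hos2 (SPAC3G9.07c) at chrI:3169671-3171512 and prw1 (SPAC29A4.18) at chrI:5110278-5111882. The hst2 gene (SPCC132.02) lies at chrIII:1328952-1330790. The positions of the probes themselves are not given in the files. The sequences shown are the 200 bases before the annotated transcript start of the 3 genes whose RNA signal differed between the groups, and of clr6. They were read from the RefSeq genome in the direction of transcription, with capitals marking matches to TATAAA on either strand.
rxt2 (chrII:453046-453245, minus strand): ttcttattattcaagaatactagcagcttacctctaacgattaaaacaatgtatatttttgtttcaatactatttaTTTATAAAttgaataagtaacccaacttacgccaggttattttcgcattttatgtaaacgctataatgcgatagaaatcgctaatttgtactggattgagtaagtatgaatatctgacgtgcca
hst2 (chrIII:1328752-1328951, plus strand): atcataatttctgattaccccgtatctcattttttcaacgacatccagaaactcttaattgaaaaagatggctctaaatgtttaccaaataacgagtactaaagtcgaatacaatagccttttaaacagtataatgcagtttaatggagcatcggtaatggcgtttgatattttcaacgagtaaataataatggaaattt
clr3 (chrII:254486-254685, plus strand): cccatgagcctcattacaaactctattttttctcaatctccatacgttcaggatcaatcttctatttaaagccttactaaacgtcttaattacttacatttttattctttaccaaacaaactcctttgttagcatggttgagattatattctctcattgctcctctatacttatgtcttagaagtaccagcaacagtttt
clr6 (chrII:851477-851676, minus strand): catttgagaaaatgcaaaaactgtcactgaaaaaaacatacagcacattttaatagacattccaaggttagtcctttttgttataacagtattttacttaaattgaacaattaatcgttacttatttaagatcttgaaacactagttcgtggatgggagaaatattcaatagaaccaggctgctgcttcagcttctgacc
The rxt2 window held 2 matches, 1 on each strand, which overlap each other. The other 3 windows held none, and none of the 4 held CAGTCACA, the HomolD box of many ribosomal protein genes, on either strand. Over all 5144 windows of 200 bases before annotated mRNA starts, 37.1% held TATAAA and 2.57% held CAGTCACA. The 4 windows overlapped no other mRNA exon. Annotated noncoding transcripts did overlap them, 2 for rxt2 and 1 for each of hst2, clr3 and clr6. Of the 4 windows, rxt2's had the lowest GC content, at 29.5%.

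The RNA arrays addressed which transcripts change on repression of pst3. Of the 9 members, rxt2 and hst2 gave more signal with pst3 labelled as repressed and clr3 gave less, with limma's moderated test and Benjamini-Hochberg adjusted p under 0.05. These 3 calls stand beside a background of 9.87% of all 4527 genes called, 4.77% higher and 5.10% lower. The catalytic subunit clr6, the partners alp13 and prw1, and the deacetylase genes hos2, sir2 and hst4 did not pass. The median difference of the 9 members was 0.25 on the log2 scale, against -0.03 for all genes tested. All values are normalized log2 signals, and the arrays cannot tell apart fewer cells with a transcript and less transcript per cell.

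The targeted gene was read first. For pst3 itself, the mean log2 level was 10.14 ± 0.12 over the arrays labelled pst3 repressed (SD, n = 2), against 10.21 ± 0.38 in wild type (SD, n = 8). With a difference of -0.07 (SE 0.39, 95% interval -0.91 to 0.78, limma adjusted p = 0.945), no repression was visible at its own probe. The direction of every difference given here rests on that label.

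Among the Clr6 complex subunits, rxt2 showed the largest difference of the 9 members. Its level was 12.28 and 12.09 on the arrays labelled pst3 repressed, against a lowest of 8.24, a median of 9.45 and a highest of 10.72 on wild-type arrays. The groups did not overlap, as was the case for 23.4% of all genes. The difference was 2.77 (SE 0.58, 95% interval 1.51 to 4.02, limma adjusted p = 0.0112), or 6.80-fold. In percentile rank among the tested genes of an array, rxt2 stood at 88.9 and 87.3 on the arrays labelled pst3 repressed, against a wild-type median of 28.5 and a range of 8.46 to 65.0. The highest wild-type rank came from the second of the 2 array platforms that carry wild-type RNA.

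**Figure D1:**
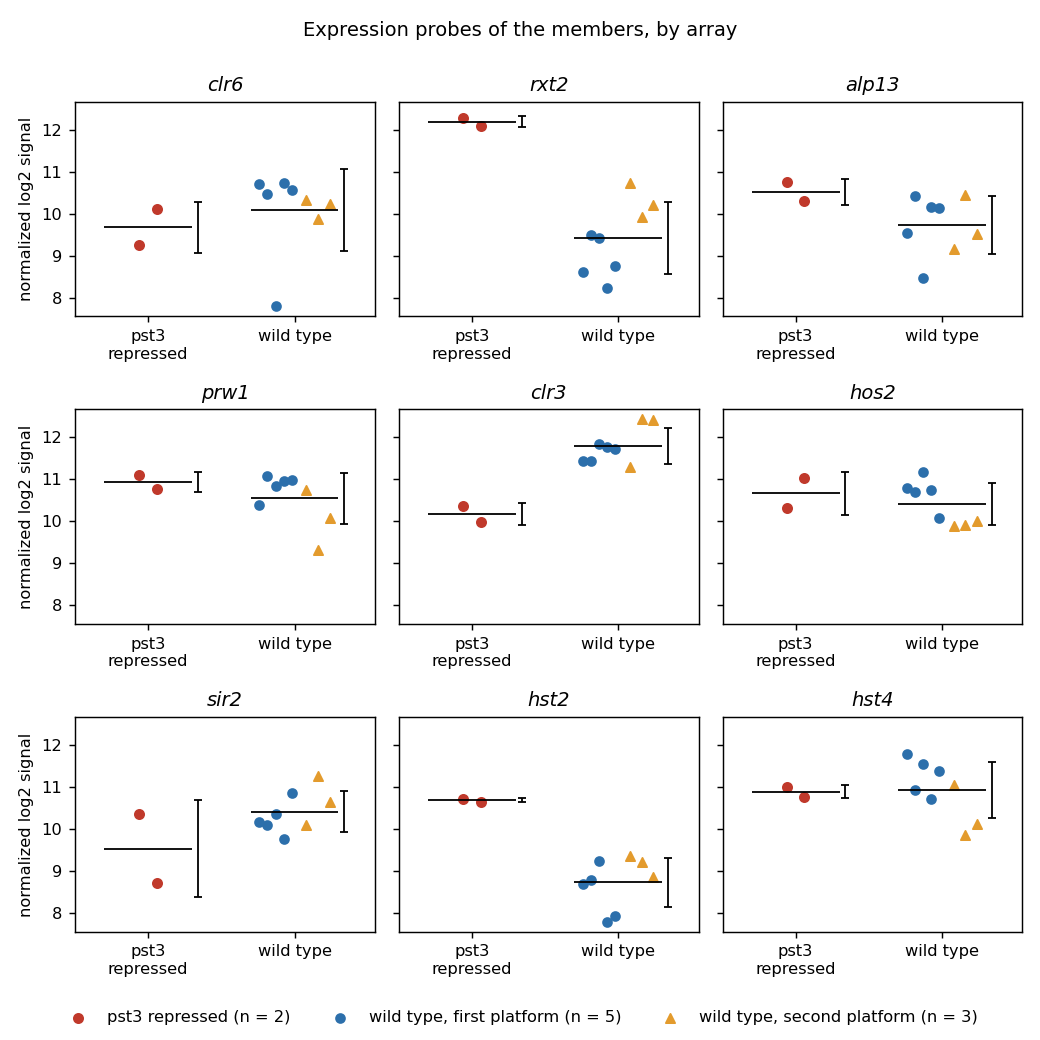
Normalized log2 signal of the expression probe of each of the 9 members, by array. Points are arrays (2 labelled pst3 repressed, left, and 8 wild type, right, marked by platform), lines are means and bars are SDs. For rxt2 and hst2 both arrays labelled pst3 repressed lie above every wild-type array, and for clr3 both lie below.

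The wild-type arrays lie on 2 platforms, and the arrays labelled pst3 repressed on a print of their own, so print and group cannot be told apart. For rxt2 the platforms themselves differed: the level was 10.28 ± 0.41 (SD, n = 3) on the second platform and 8.90 ± 0.54 (SD, n = 5) on the first, a difference of 1.38 (SE 0.38, limma adjusted p = 0.0442). It was the 1 member of 9 past the threshold in that comparison, where 10.7% of all genes passed. That call held only without wild-type replicate 3 (1.41, limma adjusted p = 0.0238). It was lost with median centring (1.42, limma adjusted p = 0.118), with the codes in the wild-type titles as a block (1.06, limma adjusted p = 0.220) and without any other 1 array (1.19 to 1.62, limma adjusted p of 0.0505 to 0.131). Against the first platform alone, the rxt2 difference between arrays labelled pst3 repressed and wild type was 3.66, and against the second alone it was 1.63, with limma adjusted p of 0.00232 and 0.0132. Its direction was thus the same against either platform, while its size was not. Without background correction the difference was 2.01 (limma adjusted p = 0.149). On wild-type replicate 1 rxt2 had only 1 spot value, which carried a scanner flag. Its signal was 10601 but its net signal after local background was 743.5, just above the empty spots at 697, for a level of 8.62. The part of this spot in the difference was not tested apart. Of the 33 spot values of rxt2, 9 carried a scanner flag, all of them on wild-type arrays, and without flagged spots the difference was 2.30 (limma adjusted p = 0.00724).

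The other Clr6 subunits did not pass the test. For clr6 the levels were 9.25 and 10.11 on the arrays labelled pst3 repressed, against a lowest of 7.80, a median of 10.41 and a highest of 10.73 on wild-type arrays. The lowest wild-type value was that of replicate 3, where all 4 spot values carried a scanner flag, the probe was not above the empty spots, and the rank was 3.82. The other 7 wild-type arrays ranked clr6 between 40.03 and 65.4, and the arrays labelled pst3 repressed ranked it at 23.9 and 47.6. The difference was -0.41 (SE 0.65, 95% interval -1.82 to 0.99, limma adjusted p = 0.752). Without wild-type replicate 3 it was -0.73 (limma adjusted p = 0.2499), and it was 0.02 when replicate 1 labelled pst3 repressed was left out. The sign thus turned on 1 array.

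Alp13 levels were 10.74 and 10.30 on the arrays labelled pst3 repressed, against a lowest of 8.46, a median of 9.83 and a highest of 10.45 on wild-type arrays. This gave a difference of 0.79 (SE 0.52, 95% interval -0.32 to 1.91, limma adjusted p = 0.371), and 1 of the 2 values lay inside the wild-type range. On wild-type replicates 3 and 6 the alp13 probe was not above the empty spots. Prw1 levels were 11.10 and 10.77 on the arrays labelled pst3 repressed, against a lowest of 9.31, a median of 10.80 and a highest of 11.08 on wild-type arrays. The first value lay just above the highest wild-type array and the second beside the wild-type median. The prw1 difference was 0.39 (SE 0.48, 95% interval -0.64 to 1.41, limma adjusted p = 0.668).

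Clr3, the SHREC deacetylase, was lower by a similar amount against either wild-type platform. Its level was 10.36 and 9.99 on the arrays labelled pst3 repressed, against a lowest of 11.30, a median of 11.74 and a highest of 12.43 on wild-type arrays. This gave a difference of -1.62 (SE 0.41, 95% interval -2.50 to -0.73, limma adjusted p = 0.0254), or 3.07-fold. The groups did not overlap, and clr3 ranked at 55.1 and 43.9 on the arrays labelled pst3 repressed, against 77.6 to 90.2 on wild-type arrays. The difference was -1.63 against the first platform alone and -1.61 against the second. All 33 spot values of clr3 were free of scanner flags, and its probe was above the empty spots on every array. With the print as a random block the size was -1.64, but limma's adjusted p was 0.0834, and without flagged spots of any gene the difference was -1.25 (limma adjusted p = 0.0803).

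The Set3 complex deacetylase hos2 did not differ beyond the spread between arrays. Its levels were 10.31 and 11.03 on the arrays labelled pst3 repressed, against a lowest of 9.89, a median of 10.39 and a highest of 11.17 on wild-type arrays. Both values lay inside the wild-type range, and the difference was 0.25 (SE 0.44, 95% interval -0.70 to 1.21, limma adjusted p = 0.777). Between the wild-type platforms hos2 was lower on the second, 9.94 ± 0.06 (SD, n = 3), than on the first, 10.70 ± 0.39 (SD, n = 5). The 2 platforms did not overlap, as was also the case for rxt2, and the share of all genes without such overlap was not counted. The hos2 difference of -0.76 between platforms (SE 0.32) did not pass (limma adjusted p = 0.147).

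Of the sirtuins, hst2 was higher. Its level was 10.72 and 10.65 on the arrays labelled pst3 repressed, against a lowest of 7.79, a median of 8.82 and a highest of 9.37 on wild-type arrays. The groups did not overlap, and the difference was 1.95 (SE 0.47, 95% interval 0.95 to 2.96, limma adjusted p = 0.0198), or 3.88-fold. The hst2 rank was 64.9 and 63.1 on the arrays labelled pst3 repressed, against 2.58 to 26.4 on wild-type arrays. The wild-type signal was weak: the probe passed the level of the empty spots (their 95th percentile) on 5 of 8 wild-type arrays and on both arrays labelled pst3 repressed, so the fold has little signal on its wild-type side. That level was 783 and 6.25 on the arrays labelled pst3 repressed and ran from 0.00 to 2692 over wild-type arrays, so such counts rest on unlike limits. Of the 33 spot values of hst2, 13 carried a scanner flag, and without flagged spots the difference was 1.501 (limma adjusted p = 0.0442). Against the first wild-type platform alone it was 2.49, and against the second alone 1.22, with limma adjusted p of 0.0120 and 0.0416. The call was lost with median centring (1.92, limma adjusted p = 0.120), with the second spot set alone (1.81, limma adjusted p = 0.0757) and with print fitted as a random block (1.91, limma adjusted p = 0.0734).

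For sir2, the 2 arrays labelled pst3 repressed disagreed. Its level was 10.35 on replicate 1 and 8.72 on replicate 2, against a lowest of 9.75, a median of 10.27 and a highest of 11.25 on wild-type arrays. On replicate 1 the spot sets themselves differed, with levels of 9.29 and 11.20, while on replicate 2 they were 8.90 and 8.40. The sir2 difference was -0.87 (SE 0.49, 95% interval -1.93 to 0.19, limma adjusted p = 0.304), -1.71 without replicate 1 and -0.05 without replicate 2. Hst4 levels were 10.99 and 10.77 on the arrays labelled pst3 repressed, against a lowest of 9.85, a median of 10.99 and a highest of 11.78 on wild-type arrays. Both hst4 values lay inside the wild-type range, and the difference was -0.04 (SE 0.50, 95% interval -1.12 to 1.04, limma adjusted p = 0.9753).

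**Figure D2:**
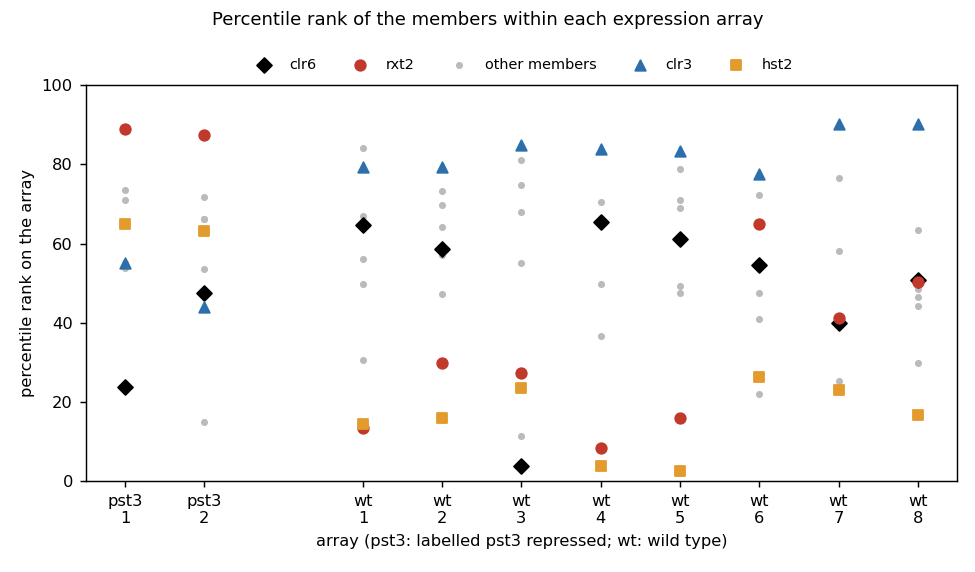
Percentile rank of each member among the tested genes of an array (vertical axis), by array (horizontal axis: 2 labelled pst3 repressed, then 8 wild type). Ranks of rxt2 were 88.9 and 87.3 on the arrays labelled pst3 repressed, those of clr3 were 55.1 and 43.9, and clr6 ranked at 3.82 on wild-type replicate 3.

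Each of the 3 calls needed both arrays labelled pst3 repressed. Without replicate 1 the differences were 2.70 for rxt2, 1.95 for hst2 and -1.81 for clr3, with limma adjusted p of 0.146, 0.193 and 0.153. Without replicate 2 they were 2.85, 1.99 and -1.43, with limma adjusted p of 0.0972, 0.133 and 0.216. The differences thus kept their direction in either array. With the 2 arrays averaged to 1 sample, an alternative chosen after seeing the data, the differences were the same and limma adjusted p was 0.155 for rxt2, 0.197 for hst2 and 0.218 for clr3. Each of these fits has 1 sample in that arm and takes its spread from the wild-type arrays alone, so the lone sample is assumed to vary as they do. Leaving out any 1 wild-type array ended none of the 3 calls.

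The spread of the members was read within and between wild-type arrays. On the 7 wild-type arrays for which 2 channels were deposited, the size of the log2 ratio between channels was computed after loess, with no direction, since the dye of each file is not given. Its median over arrays lay between 0.07 for clr6 and 0.30 for hst2, against 0.19 over all genes. The SD over the 8 wild-type arrays lay between 0.43 for clr3 and 0.97 for clr6, against a median of 0.67 over all genes. Only clr6, rxt2 and alp13 of the 9 members had a wild-type SD above the middle of all genes.

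The genes whose levels were most like those of a member were found by Pearson's r of the log2 level over the 10 expression arrays, with no test, since they are the highest of all genes. For clr6 these were mae2, a malic enzyme gene (r = 0.98), and rad22 (rad52), of recombinational repair (r = 0.98). For rxt2 they were SPAC13A11.05 (ysp2; r = 0.96) and SPBC9B6.12c (apc13, of the anaphase-promoting complex; r = 0.96). For hst2 they were SPCC16A11.06c (gpi10, of glycolipid anchor synthesis; r = 0.97) and SPAC12G12.09 (eti1; r = 0.96). For clr3 they were SPBC23G7.07c (cms1; r = 0.98) and rpl28-1 (rpl2801), of the large ribosomal subunit (r = 0.97). Over the 8 wild-type arrays alone these correlations lay between 0.88 for eti1 and 1.00 for mae2. The clr6 correlations include wild-type replicate 3, where clr6 lay far below all other arrays, at 7.80, and not above the empty spots. How far they rest on that 1 array was not tested. All 10 points share the print and the scan of their array.

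Other deacetylase complex and acetyltransferase genes were read from 4 lists. Of the 23 tested genes of these lists none was called higher and 1, mst1, was called lower, and their median difference was -0.01. Of 12 other Sin3 and Clr6 complex genes none was called by limma, and only png2 had an unadjusted p under 0.05. The share of all tested genes under that unadjusted limit was not counted, but it is at least the 9.87% called after adjustment. The smallest p were those of png2, an ING-family subunit (-0.95, SE 0.40, limma adjusted p = 0.155), dep1 (-1.37, SE 0.65, limma adjusted p = 0.208) and rxt3 (0.76, SE 0.42, limma adjusted p = 0.284). On replicate 1 labelled pst3 repressed the dep1 probe was not above the empty spots, and its spot sets gave levels of 8.25 and 6.65. Rxt2 was called higher, while rxt3 and dep1, genes of the same complex, were not called, and the difference between them was not tested. The differences of the list ran from -1.37 to 0.76.

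In SHREC, whose deacetylase is clr3, none of the 3 tested partners was called by limma, though clr1 and chp2 had an unadjusted p under 0.05. At least 9.87% of all tested genes passed that unadjusted limit. The zinc finger subunit gene clr1 was not above the empty spots on either array labelled pst3 repressed, and on 6 of 8 wild-type arrays it was. Its mean level was 7.27 on the arrays labelled pst3 repressed and 8.94 on wild-type arrays, and the groups overlapped. The fitted difference of -1.67 (95% interval -3.02 to -0.32) did not pass (limma adjusted p = 0.115). Against a floor in place of clr1's own level, it was 2.11-fold lower. The floor is the lowest level of a gene above the empty spots on each array labelled pst3 repressed, or clr1's own level where that is higher. Any higher floor would give a smaller fold, and the wild-type mean includes arrays not above the empty spots. The 2.11-fold value is thus no strict lower bound, and the 95% interval also holds smaller differences. The chromodomain protein gene chp2 differed by 1.34 (SE 0.57, limma adjusted p = 0.159). Its levels were 10.12 and 9.47 on the arrays labelled pst3 repressed, both above the empty spots, against a lowest of 7.41 and a highest of 9.70 on wild-type arrays, of which only 3 of 8 were above them. The difference for mit1, the remodelling ATPase gene, was -0.15 (SE 0.43, limma adjusted p = 0.875). In the Set3 complex none of 3 genes was called by limma, and only hif2 had an unadjusted p under 0.05. Hif2 differed by -1.20 (SE 0.41, limma adjusted p = 0.0818), snt1 by -0.19 (SE 0.62, limma adjusted p = 0.891) and set3 by 0.25 (SE 0.61, limma adjusted p = 0.847).

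Of 5 acetyltransferase genes, mst1, which encodes the catalytic subunit of the NuA4 complex, was called lower. Its net signal was -224 and 0.00 on the arrays labelled pst3 repressed, so neither was above the empty spots, while 6 of 8 wild-type arrays were. Its mean level was 6.85 on the arrays labelled pst3 repressed and 9.81 on wild-type arrays (limma adjusted p = 0.0146). Against the same kind of floor as for clr1, it was 3.86-fold lower, which is again no strict lower bound. The 95% interval of the fitted difference, -4.37 to -1.54, also holds smaller differences. Wild-type replicates 6 and 8, at 8.496 and 7.94, lay below the other 6, which ran from 10.06 to 10.48. Its fitted difference was -2.96, and it was -3.06 and -2.72 without array 1 and array 2 labelled pst3 repressed (limma adjusted p of 0.146 and 0.152). With these arrays averaged to 1 sample it was again -2.96 (limma adjusted p = 0.173), and in these fits the spread comes from the wild-type arrays alone. Mst2, a histone H3 acetyltransferase gene, differed by 1.20 (SE 0.42, limma adjusted p = 0.0895) and gcn5, of the SAGA complex, by 1.49 (SE 0.87, limma adjusted p = 0.317). The gcn5 probe was above the empty spots on 4 of 8 wild-type arrays, and its levels on the second platform were 7.27, 7.60 and 7.32. Against that platform alone gcn5 passed (2.55, limma adjusted p = 0.000999), and against the first alone it did not (0.81, limma adjusted p = 0.538). Without flagged spots its difference was 0.75 (limma adjusted p = 0.561).

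**Figure D3:**
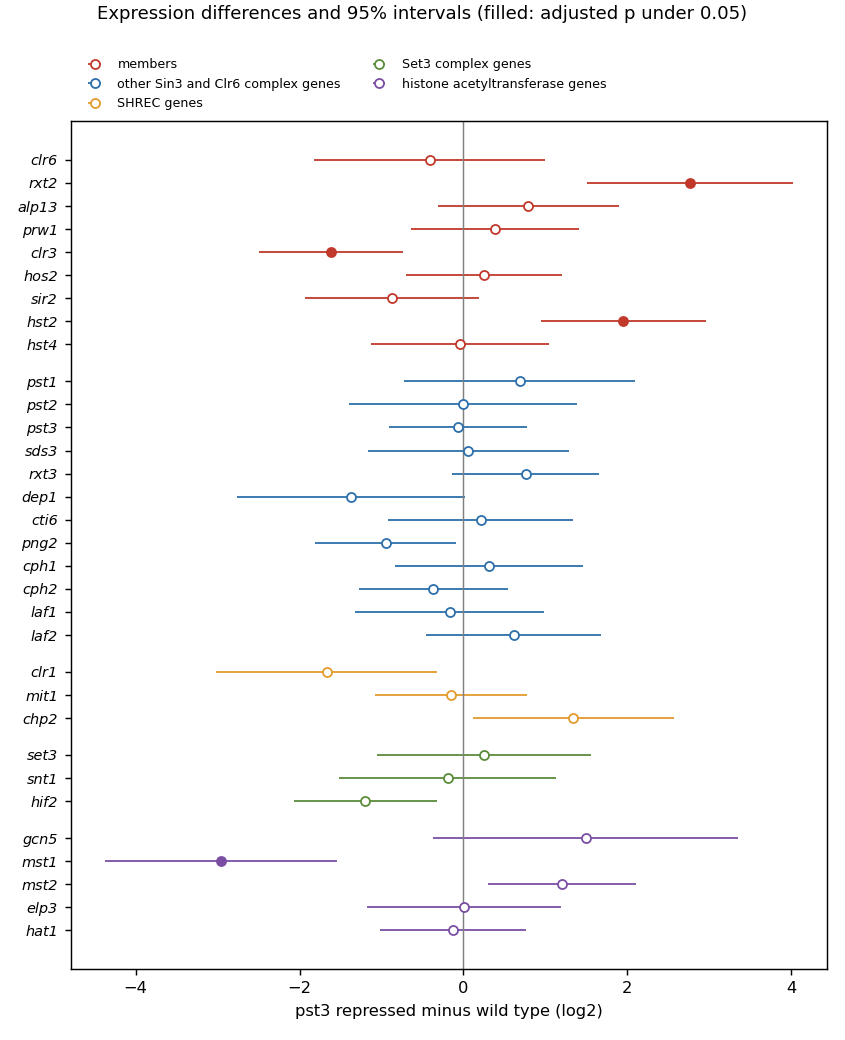
Difference between the arrays labelled pst3 repressed and the wild-type arrays (log2, horizontal axis) for the members and the genes of the 4 partner lists. Points are fitted differences, bars 95% intervals, and filled points have limma adjusted p under 0.05: rxt2 (2.77), hst2 (1.95), clr3 (-1.62) and mst1 (-2.96).

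The IGR arrays of Pst3-GFP asked which intergenic regions differed from a wild-type reference. None of the 10 member probes passed limma's adjusted 0.05, against 1.72% of all 4941 regions (0.951% higher and 0.769% lower), and none had an unadjusted p under 0.05, as 467 of all 4941 regions had. Each value is the deposited signal over the authors' reference, as log2 centred on the array median. Both arrays were divided by the same reference value of a region, so the 2 ratios of a region are not independent. Agreement between them includes that shared reference. The labels put the immunoprecipitate in Cy3 on replicate 1 and in Cy5 on replicate 2, and which channel each deposited file holds is not given. So whether a signal is that of Pst3-GFP DNA could not be checked, and no direction of binding is drawn. One SE of 0.84 applies to all regions, and the smallest mean ratio of a region called higher was 2.83, more than any member reached.

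The region named for rxt2 had the highest mean ratio of the members, 1.15 (95% interval -0.50 to 2.80, limma adjusted p = 0.788), with 1.10 on replicate 1 and 1.20 on replicate 2. Its signal was nonetheless low, at percentiles 37.4 and 8.18 of the 2 arrays, over a reference at percentile 8.35. The region named for prw1 had the lowest, -1.58 (95% interval -3.23 to 0.07, limma adjusted p = 0.568), with -2.21 and -0.94 on the 2 arrays. Its reference lay at percentile 88.5. Over all regions the mean ratio and the reference had a Spearman correlation of -0.51, so a dim reference went with a high ratio. Signal over reference was also ranked on the IGR arrays labelled beads. There the rxt2 region stood at 78.4 on array 1 and at 89.8 and 89.6 on array 2, and the prw1 region at 4.47, 5.95 and 7.85. On the wild-type H3 array they stood at 95.3 and 97.1 and at 15.8 and 18.5. These high and low places were thus not particular to the arrays with wild-type input. With normexp and loess against the reference the rxt2 ratio was -0.08. The prw1 region passed with normexp (-1.64, limma adjusted p = 0.0132) and with the dimmest 25% of regions left out (-1.68, limma adjusted p = 0.0151), but not with normexp and loess against the reference (-0.89, limma adjusted p = 0.475).

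The IGR-clr6 probe was bright on both arrays, with signals of 2126 and 2026.5, at percentiles 81.5 and 74.2. Its reference was bright too, at percentile 66.7, and the ratios were 0.93 and -0.24, on both sides of 0. The clr3 region had ratios of -1.94 and -0.57 (mean -1.25, limma adjusted p = 0.736). The hst2 region had 0.65 and 0.24, the hst4 region 0.56 and 0.82, and the alp13 region 1.45 and 0.21, all above 0. The sir2 region had -0.49 and 0.04. In all, 4 of 10 member probes lay above 0 on both arrays and 2 below, against 27.4% and 27.7% of all regions.

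**Figure D4:**
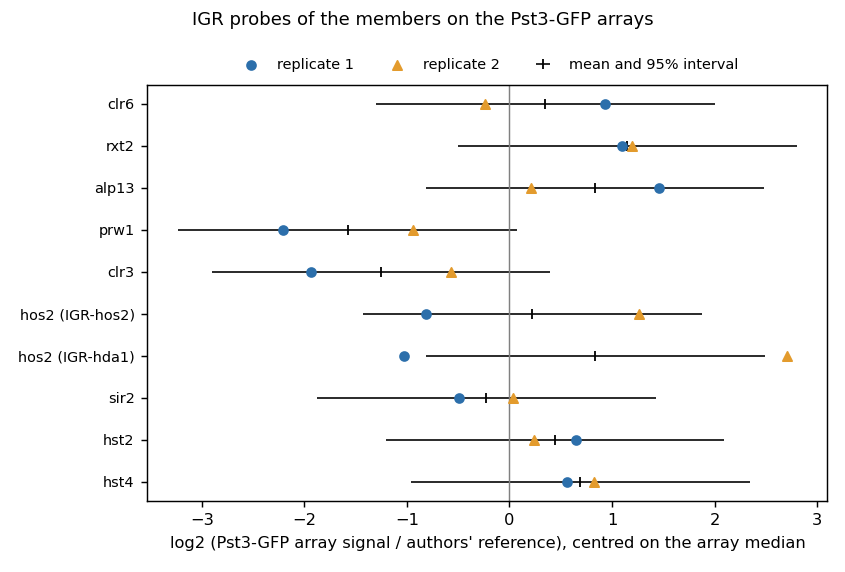
Log2 of deposited signal over the authors' reference on the 2 Pst3-GFP arrays (horizontal axis, centred on each array's median) for the 10 IGR probes of the members. Points are arrays, ticks and bars are the mean and 95% interval. Every interval includes 0, and the IGR-hda1 probe of hos2 lies at -1.03 on replicate 1 and at 2.71 on replicate 2.

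The 2 probes named for hos2 show how far these ratios reach for dim probes. IGR-hda1 had ratios of -1.03 and 2.71, over a reference at percentile 1.96, and IGR-hos2 had -0.82 and 1.26, over a reference at percentile 9.17. Both changed sign between replicates. With normexp, IGR-hda1 had a ratio of 2.04 and passed (limma adjusted p = 0.00119), and with normexp and loess against the reference it had -0.25. Among the partner lists 1 region was called, that named for gcn5, with ratios of 2.94 and 3.67 (mean 3.31, SE 0.84, limma adjusted p = 0.0105) over a reference at percentile 1.70. With normexp and loess against the reference its ratio was 0.99 and did not pass (limma adjusted p = 0.384). It did not pass either with plain subtraction (3.78, limma adjusted p = 0.0582) or with the first (3.35, limma adjusted p = 0.0520) or the second spot set alone (3.26, limma adjusted p = 0.252).

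The 2 ORF and 2 IGR arrays of Pst3-GFP labelled as beads have no group to be compared with and are given as percentile ranks of the signal, without a test. Between the 2 ORF arrays the Spearman correlation over probes was 0.13 to 0.14, against 0.96 between the files of array 1 and 0.88 between those of array 2. The members moved far between these arrays. The hst4 probe ranked at 37.4 and 37.1 on array 1, with a signal of 171 in both files, and at 99.2 and 98.8 on array 2, with 18271 and 15364. The hst2 probe did the opposite, with ranks of 71.7 and 72.1 on array 1 and of 2.32 and 2.29 on array 2. The titles of the 2 arrays share a slide code and differ only in its suffix, and what that suffix stands for is not given. The 2 arrays are thus not known to be separate slides or replicates.

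On array 1 the clr3 probe was the brightest of the 9 ORF probes in rank, at 93.6 and 92.8 (signals of 4011 and 3499), and on array 2 it ranked at 82.3 and 83.8. The clr6 probe ranked at 2.45 and 8.93 on array 1 and at 65.4 and 61.8 on array 2. For hos2 the 2 files of array 2 disagreed, at 40.5 and 92.0. Only sir2 and hst4 exceeded the empty spots in the first file of array 2, where 13.5% of all probes did. On the IGR probes the clr6 region ranked at 94.5 on array 1, with a signal of 1904.5, and at 54.4 and 51.2 on array 2. The next member region on array 1 was that of clr3, at 63.8. IGR-hda1 ranked lowest, at 3.95 on array 1 and at 8.72 and 9.96 on array 2.

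The H3 arrays labelled hst2D and hst4D, read as strains that lack these sirtuin genes, were set against the wild-type array. The deleted genes were read first. On the hst2D array the hst2 ORF probe had signals of 631 and 2167.5 in its 2 files, at ranks 56.3 and 99.1, against 1456.5 and 1442.5 on the wild-type array. On the hst4D array the hst4 probe had 2810 and 496, at ranks 99.9 and 11.2, against 1667 and 916, at ranks 94.2 and 30.8, on the wild-type array. Neither probe was thus low throughout its own deletion array. In the file with the lower value each was below the empty spots (limits of 760 for hst2 and 749 for hst4). Only 11.9% and 13.0% of all ORF probes exceeded the empty spots in those files. Since it is not given which DNA a file holds, these values could not settle whether the deletions that the labels name are present.

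The hst4 and hst2 probes were split in the same way on both deletion arrays. On the hst2D array hst4 had signals of 462 and 3690.5, at ranks 5.70 and 99.98, and on the hst4D array hst2 had 1793.5 and 714, at ranks 97.8 and 80.3. In each strain the file of higher median signal held the bright value. The 2 files of a deletion array had Spearman correlations of only 0.29 and 0.30 for ORF probes and 0.18 and 0.19 for IGR probes, against 0.80 for both wild-type arrays. The files of higher median signal of the 2 strains correlated at 0.53 on ORF probes, more than the 2 files of either strain, while the files of lower median signal correlated at 0.30. On IGR probes these values were 0.43 and 0.21. Whether the 2 files are spot sets or the 2 labelled channels is not given, and so neither is which strain's DNA a file holds.

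**Figure D5:**
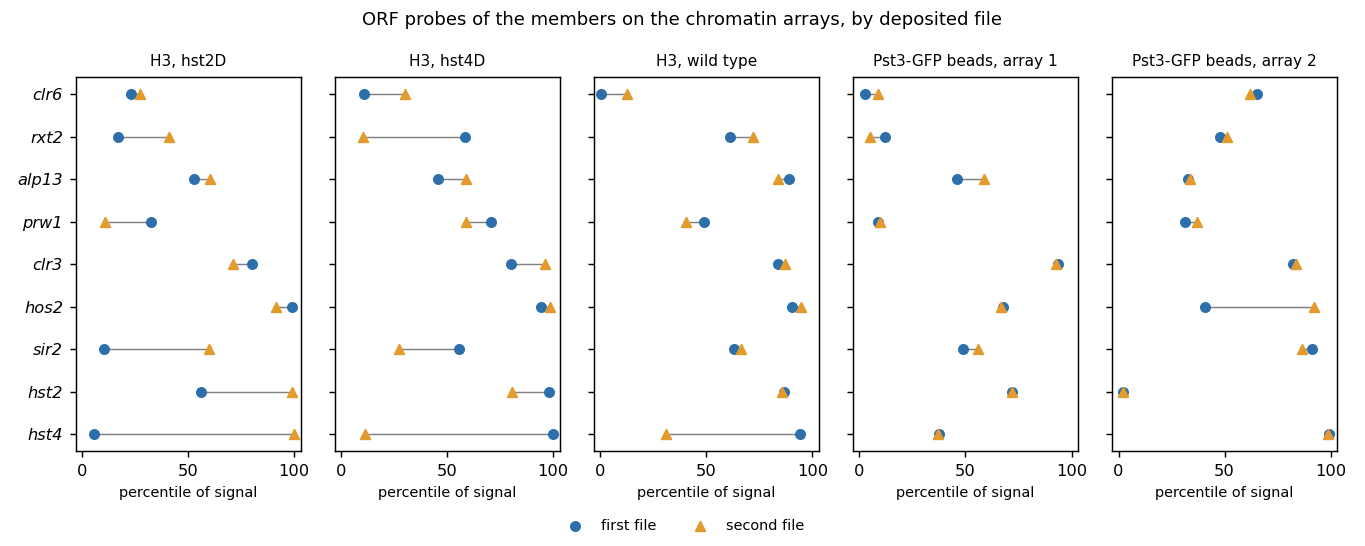
Percentile rank of the signal of each member's ORF probe (horizontal axis) on the H3 arrays and on the 2 Pst3-GFP arrays labelled as beads, with 1 point for each deposited file. On the hst2D and hst4D arrays hst4 lies at 5.70 and 99.98 and at 99.9 and 11.2, while on array 2 of those labelled as beads it lies at 99.2 and 98.8.

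Differences in signal on the H3 arrays were counted where both files of a deletion array passed 2-fold against the mean of the wild-type files. None of the 9 ORF and 10 IGR member probes did so in either strain. Of all ORF probes 0.0614% were higher and 0.552% lower in hst2D, and 0.0409% higher and 0.532% lower in hst4D. Of all IGR probes 0.0607% were higher and 0.283% lower in hst2D, and 0.142% higher and 0.364% lower in hst4D. In at least 1 file, 2 member ORF probes passed in hst2D (hst2 and hst4) and 1 in hst4D (hst4), beside 4.60% and 4.79% of all ORF probes. On IGR probes none passed in 1 file in hst2D and only IGR-hda1 did so in hst4D, at 0.69 and 1.05, beside 3.80% and 3.68% of all IGR probes.

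In all 4 deletion files 5 of 9 member ORF probes (clr6, hos2, sir2, rxt2 and alp13) had the same sign, beside 53.6% of all ORF probes. So did 5 of 10 member IGR probes (IGR-hda1 and those of clr3, sir2, hst4 and rxt2), beside 56.5% of all IGR probes. Values are given for 5 of these 10 probes, chosen after they were seen. The clr6 ORF probe was brighter, by 0.64 and 0.66 in hst2D and by 0.50 and 0.69 in hst4D (log2 of centred signal), but it was below the empty spots on all 3 arrays. The alp13 ORF probe was dimmer, by -0.43 and -0.37 in hst2D and by -0.48 and -0.39 in hst4D, with all 4 values below the empty spots. The region named for rxt2 was dimmer, by -0.62 and -0.51 in hst2D and by -0.87 and -0.83 in hst4D, as was that named for sir2, by -0.76 and -0.51 in hst2D and by -0.72 and -0.33 in hst4D. IGR-hda1 was brighter, by 0.61 and 0.80 in hst2D and by 0.69 and 1.05 in hst4D. In the 2 wild-type files the clr6 ORF probe ranked at 0.16 and 12.7 and IGR-hda1 at 0.22 and 8.03. The alp13 ORF probe ranked there at 88.8 and 83.9, the rxt2 region at 81.7 and 96.8 and the sir2 region at 77.9 and 72.6. Of these 5, the brighter probes were thus dim on the wild-type array and the dimmer ones bright. The hos2 ORF probe, also brighter, ranked at 90.3 and 94.5. What part the wild-type values had was not tested. The hst2D and hst4D differences share the 1 wild-type array, and there is no replicate, so none of these values has a test. Of the 9 member ORF probes, 1 and 3 exceeded the empty spots in the hst2D files, 3 and 2 in the hst4D files, and 8 and 6 in the wild-type files, beside 11.9% and 10.9% of all probes in the hst2D files, 11.95% and 13.0% in the hst4D files, and 51.6% in each wild-type file.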

How the data were processed

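Total RNA or chromatin DNA was read on spotted arrays, and the authors deposited scanner tables with the intensity of each spot, its local background and a flag whose meaning is not given. On the Pst3-GFP arrays the deposited signal was divided by a reference intensity that the authors deposited beside it. The log2 values used here were computed from these deposited intensities. The labels cite a publication for extraction and labelling, while the sources used here name no image software and no genome build. Expression signals were background-corrected with normexp (offset 50), averaged over spots and channels, quantile-normalized and tested with limma 3.58.1 in R 4.3.3 (lmFit and eBayes, Benjamini-Hochberg, 0.05). Tables were made with Python 3.11.15. Of 4714 gene names on all arrays, 187 from 2 plates that appear exchanged between prints were left out. A probe counted as above background where its net signal passed the 95th percentile of empty spots on that array, a limit that differed widely between arrays. Median net signal ran from 390 to 3820 over the wild-type arrays and was 1531 and 3652 on the arrays labelled pst3 repressed; the number of arrays limits the precision. Chromatin signals were centred on the array median with no loess, with 1 limma fit for the Pst3-GFP arrays and a 2-fold rule for the H3 arrays, which have no replicate. A deposited file that repeated another of the Pst3-GFP arrays labelled beads was counted once. The authors also deposited tables of log2 values, with column medians from -6.64, a floor that repeats in the values, to 0.88; their centring and direction are unknown and they were not used for results. The planned test of the channel ratio against 0 was not run, since the dye of each file is not given, so only its size is reported. The scripts were tested on simulated data. The members and the partner lists were chosen with earlier results of these data known. Partner genes are named if they passed the threshold or had the 3 smallest p of their list, and as genes like a member the 2 with the highest correlation are named. Alternatives covered background correction, normalization, dim probes, spot sets, prints and left-out arrays. Leaving out flagged spots, averaging the arrays labelled pst3 repressed and a block for the codes of the wild-type titles were added after seeing the data.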

Additional observations from a re-analysis of the deposited data

Results flagged for a closer look

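The clr6 level of wild-type replicate 3, 7.80 on the log2 scale, lay far from those of the other 7 wild-type arrays, with a gap to the nearest of them of 0.707 of the whole range. Levels of 22 genes were looked at in this way, and chance marks about 1 in 20 groups. All 4 spot values of clr6 on that array carried a scanner flag, and their part in the value was not tested.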

How the results depend on the processing

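Of the 3 members called in expression, clr3 kept its call under every change of background, normalization, dim-gene filter, spot set and platform, and lost it with the print block, without flagged spots and without either array labelled pst3 repressed. The number of genes called, 447, was 214 with median centring, 747 and 802 against the first and second platform alone, 172 with the print as a random block, 46 with the arrays labelled pst3 repressed averaged, and 49 to 555 with 1 array left out. Between platforms 484 genes were called, 224 with median centring, 73 with title codes as a replicate block and 147 to 684 with 1 array left out. On the IGR arrays 85 regions were called, 665 with normexp, 8 with plain subtraction, 377 without the dimmest 25%, 10 with the first spot set and 0 with the second. The median channel ratio size, 0.19, was 0.26 with median centring. Probes past 2-fold on the H3 arrays were 30 (hst2D ORF), 17 (hst2D IGR), 28 (hst4D ORF) and 25 (hst4D IGR). In the same order they were 305, 280, 307 and 273 with normexp, 1185, 1459, 1246 and 1409 with plain subtraction, 111, 100, 157 and 93 with file 1 alone, and 145, 105, 106 and 114 with file 2 alone. The cause of these shifts was not tested.

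Signs turned only for differences that had not passed the test. For pst3 the difference was 0.0026 without dim genes, 0.034 with the first spot set, 0.16 without flagged spots, 0.13 against the first platform, and -0.15 to 0.041 with 1 array left out. For hst4 it was 0.018 with the print block, 0.068 with the second spot set, 0.25 without flagged spots, 0.44 against the second platform, and -0.20 to 0.086 with 1 array left out. For mit1 it was 0.15 with median centring, 0.061 without flagged spots, 0.069 against the second platform, and -0.39 to 0.086 with 1 array left out. Against the first platform it was -0.037 for hos2 and -0.070 for set3, and against the second 0.44 for snt1. With 1 array left out it ran from -0.10 to 0.62 for hos2, -0.16 to 0.67 for set3, -0.54 to 0.16 for snt1 and -0.84 to 0.023 for clr6. Between platforms, median centring gave -0.12 for clr3 and 0.24 for alp13, the title code block 0.041 for alp13, and leaving out 1 array gave -0.48 to 0.27 for clr6 and -0.42 to 0.26 for alp13. IGR ratios turned with plain subtraction to -0.76 for both IGR-hos2 and IGR-hst4 and to -0.25 for rxt2, and with normexp and loess to -0.23, -0.25, -0.24 and -0.076 for IGR-hos2, IGR-hda1, IGR-hst4 and rxt2. The authors' value tables were not run, since their identifiers are not tied to genes here. No paired analysis was possible between pst3 repressed and wild type or on the chromatin arrays because the labels give those groups no shared replicate numbers. Codes in the wild-type titles recur on both platforms for 3 pairs of arrays. The deviations of these pairs from the platform means correlated at -0.052 to 0.012, against -0.055 to 0.11 for the 12 other pairs. With only 3 pairs, whether a code marks a shared culture or RNA cannot be told. With the codes as a replicate block the platform difference was 1.06 for rxt2 (limma adjusted p = 0.220) and -0.71 for hos2 (limma adjusted p = 0.352).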
